A study of Arabidopsis thaliana with 3 samples.

Results

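The comparison described here is the earliest of an auxin time course in Arabidopsis thaliana: seedlings were kept for 20 minutes in 10 µM of the natural auxin IAA (indole-3-acetic acid) and set against seedlings kept as long in the ethanol carrier. It is 1 of the 3 arrays of the series, chosen as the array titled for 20 minutes of IAA, and holds 21930 probes with a value, of 21939 probes in the table. Named genes with a value numbered 12130 after probes of the same gene were averaged, and 9743 further probes with a value carry no single gene name here. All seedlings were of the ecotype Col-0, had germinated from about 500 surface-sterilised seeds on a filter over medium with 1% sucrose, had been held for 48 h at 4 °C and then grown for 4 days in the dark at 25 °C. The IAA group was submerged in 10 µM IAA in 0.1% ethanol and the control group in 0.1% ethanol alone, and whole seedlings were lifted off together and frozen. Total RNA was compared on an array with 2 channels, with the ethanol seedlings as channel 1 and those in IAA as channel 2. The same design was repeated with 1 array at 40 minutes and 1 array at 60 minutes, each against its own ethanol control of the same time. There was 1 array per time, so no value below has a replicate error and no test was made.

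Auxin acts within minutes on transcription. It brings TIR1/AFB receptors and Aux/IAA repressors together, the repressors are degraded, and auxin response factors are released to act on their targets. Known early targets include the Aux/IAA genes themselves, GH3 genes, whose enzymes join amino acids to auxin and so inactivate it, SAUR genes, and LBD transcription factors linked to lateral root formation. In dark-grown seedlings auxin also governs the elongation of the hypocotyl, where cell wall loosening proteins such as expansins take part.

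Each value is the deposited log2 ratio of the channels, so that 1 is a 2-fold difference and 0 no difference. The labels do not say which channel is the numerator. Positive values likely mean more RNA in the IAA seedlings, on the basis of the channel order in the labels and of auxin-responsive genes on that side, so the sign of those genes is no independent result. With the numerator turned, each ratio becomes its inverse and the order of genes is reversed: GH3.1 would be the lowest named gene, at a ratio of 0.183, and AT1G17230 the highest, at 3.85. The log2 ratios at 20 minutes ran from -1.94 (a ratio of 0.26) to 2.45 (a ratio of 5.47), with a median of 0. Of the probes, 97.4% lay within 1.5-fold of no difference, and the robust SD over all probes was 0.165, beside 0.221 at 40 and 0.110 at 60 minutes. The 55 genes with more than 1 probe give the only repeated measure within the array: their probes differed by a median of 0.132 and at most by 0.520 on the log2 scale. In 22 of the 55 the probes of the gene lay on opposite sides of 0. All of these probes lay within 0.535 of 0, so agreement between probes of a gene with a large ratio cannot be read from them. The ratios were deposited to 2 decimals, and 1 step of rounding is 0.0144 on the log2 scale at a ratio of 1 but 0.0544 at the lowest ratio, which gives tied values on the negative side. A level per channel is not part of these values, so neither the abundance of a transcript nor the tissue markers of whole seedlings can be checked as levels, and fewer cells of a type cannot be told apart from less RNA per cell.

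The positive 2-fold line was reached by 20 named genes, 0.165% of the 12130. GH3.1 had the highest ratio of any named gene in the direction used here, with log2 ratios of 2.45 at 20, 2.85 at 40 and 3.54 at 60 minutes. HAT2, a transcription factor gene of the HD-Zip II family, came next at 2.33, with 2.30 and 2.56 at the later times. GH3.3 followed at 1.996 (a ratio of 3.99), with 2.47 and 4.02 later. GH3.1 and GH3.3 thus had higher ratios on each later array, whereas HAT2 stood at nearly its full 60-minute value on the first array. LBD16 stood at 1.62, 1.94 and 2.56, and LBD29 at 1.58, 2.16 and 2.91 at 20, 40 and 60 minutes. WAG2, which encodes a protein kinase related to PINOID and linked to the control of auxin transport, stood at 1.19, 1.56 and 1.46. AT5G66580, with log2 ratios of 1.80, 1.97 and 1.70, and AT1G68360, with 1.48, 1.53 and 1.05, have no name or role in the tables used here. These 8 genes were the members of the 20 that were also 1.5-fold positive or more at both later times.

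**Figure D1:**
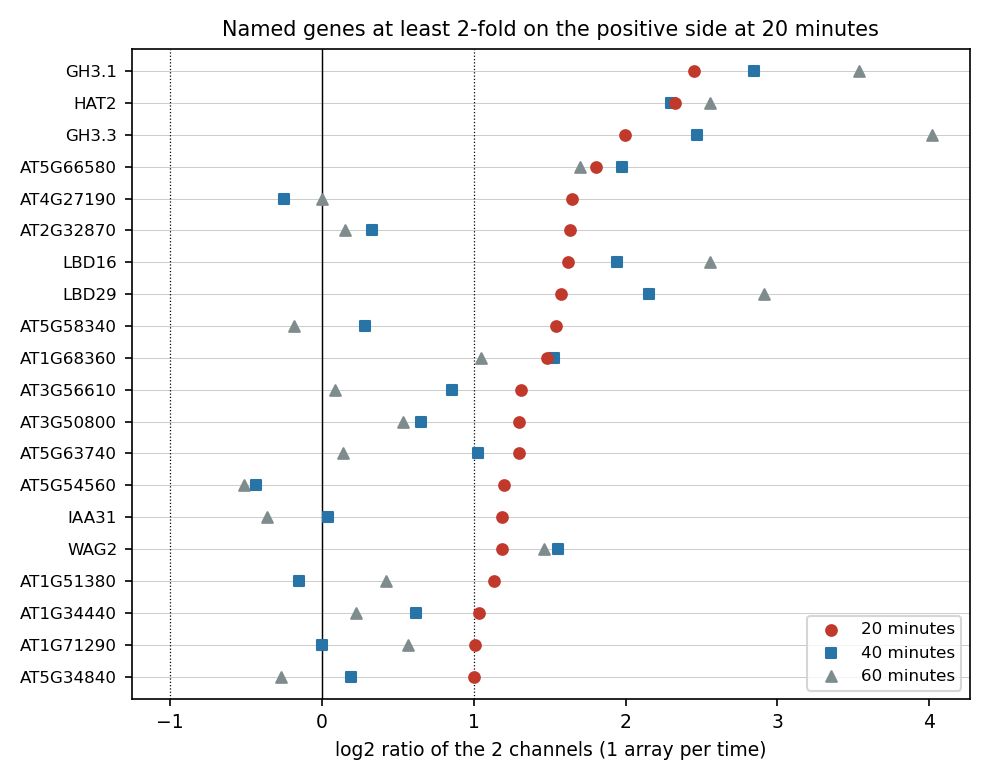
Log2 ratios (horizontal axis) of the 20 named genes that reached the positive 2-fold line at 20 minutes, 1 point per array at 20, 40 and 60 minutes, with dotted lines at 2-fold. GH3.1, HAT2, GH3.3, LBD16 and LBD29 lie to the right of 1 at all 3 times, whereas AT4G27190 and IAA31 lie there only at 20 minutes.

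The other 12 of the 20 did not hold their side at that size through the hour. AT3G56610 (1.31 at 20, 0.86 at 40 and 0.08 at 60 minutes), AT5G63740 (1.30, 1.03 and 0.14), AT3G50800 (1.30, 0.65 and 0.54) and AT1G34440 (1.04, 0.62 and 0.23) were still at least 1.5-fold positive at 40 but not at 60 minutes. In each of these 4 the 3 values became smaller from array to array. The remaining 8 were under 1.5-fold at both later times. Among them AT4G27190 went from 1.65 to -0.25 and 0, AT2G32870 from 1.64 to 0.33 and 0.15, and AT5G58340 from 1.54 to 0.29 and -0.18. IAA31, an Aux/IAA repressor gene and the only gene of these 8 with an auxin-related name, went from 1.19 to 0.04 and -0.36. AT5G54560 went from 1.20 to -0.43 and -0.51, AT1G51380 from 1.13 to -0.15 and 0.42, AT1G71290 from 1.01 to 0 and 0.57, and AT5G34840 from 1.00 to 0.19 and -0.27. With 1 array per time, a ratio that passes within the hour cannot be told apart from an error on the first array.

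Read against all named genes, 12 of the 20 lay at least 1.5-fold positive at 40 minutes and 8 of the 20 at 60 minutes, where 5.73% and 2.24% of named genes did. The band just below 2-fold held more genes. Named genes that reached 1.5-fold on the positive side numbered 150, which is 1.24% of those measured, and 130 of them lay under 2-fold. Of these 130, 15 were at least 1.5-fold positive at 40 minutes and 12 at 60 minutes, 5 of them at both, and 7 were at least 1.5-fold negative at 40 minutes. The median of these 130 genes went from 0.67 at 20 to -0.01 at 40 and 0.08 at 60 minutes, beside 1.40, 0.75 and 0.48 for the 20 genes beyond 2-fold. Most genes of the lower band were therefore near no difference on the later arrays.

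The auxin-related lists had 18 measured members under a name. Of these, 16 lay above 0 at 20 minutes and 8 were at least 1.5-fold positive. Over all 12130 named genes, 5771 lay above 0 and 1.24% were at least 1.5-fold positive. The median of the 18 was 0.53, beside 0 for all named genes. None of the 18 reached 1.5-fold on the negative side, where 1.28% of named genes stood, a share near which none of 18 also lies. The side called positive was read in part from auxin-responsive genes, and the lists were chosen with earlier results of these data known. These counts are therefore no independent result. All 6 measured GH3 genes lay above 0. After GH3.1 and GH3.3 came WES1 (GH3.5), which had log2 ratios of 0.77 at 20, 0.61 at 40 and 1.82 at 60 minutes. GH3.4 stood at 0.52, 1.97 and 3.32, so it was under 1.5-fold on the first array and among the highest on the last. GH3.17 stood at 0.34, -0.18 and 0.15 and GH3.9 at 0.11, 0.32 and 0.33. The family therefore ran from 0.11 to 2.45 at 20 minutes. The Aux/IAA repressor genes spread too: IAA31 stood at 1.19, IAA30 at 0.54 (1.06 at 40 and 0.53 at 60 minutes), IAA34 at 0.04, IAA20 at -0.01 and IAA18 at -0.03. IAA30 kept its side at the later times and IAA31 did not. The 3 measured YUCCA genes of auxin biosynthesis stood close together at 0.25 (YUC11), 0.23 (YUC4) and 0.15 (YUC6), and all 3 were on the negative side at 60 minutes, at -0.22, -0.23 and -0.18. For auxin response factors, TIR1/AFB receptors and SAUR genes, the name patterns of the lists matched 0 measured genes. This does not mean that such genes were not measured. Members may stand under names that the patterns missed, or among the 9743 probes without a single gene name.

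**Figure D2:**
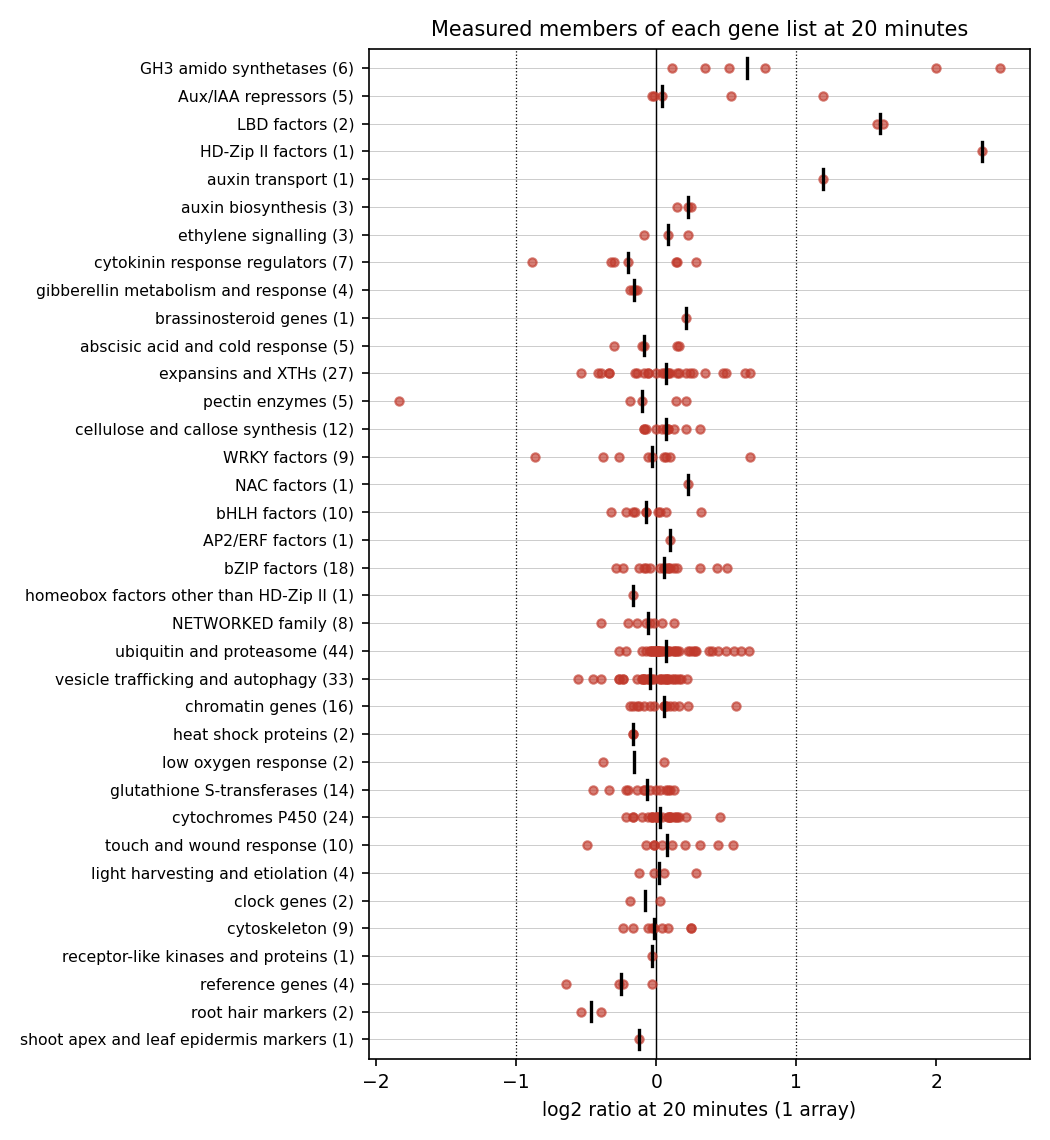
Log2 ratio at 20 minutes (horizontal axis) of the measured members of each gene list, 1 point per gene, with the median as a black bar, the number of members in brackets and dotted lines at 2-fold. The GH3, Aux/IAA, LBD, HD-Zip II and auxin transport lists hold points to the right of 1, and AT59 of the pectin list, at -1.84, is the only listed gene to the left of -1.

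Outside the auxin lists, 277 listed genes had a median of 0.01, with 146 above and 124 below 0. Of these 277, 5 were at least 1.5-fold positive and 4 negative, counts near the shares of all named genes (1.24% and 1.28%). For cell walls, the 27 expansins and xyloglucan endotransglucosylases (XTH) had a median of 0.07. XTH33 (0.67, -0.17 and 0.37 at 20, 40 and 60 minutes) and EXPB4 (0.63, 0.18 and 0.14) were the highest. The lowest of that list were EXPA18 (-0.54), XTH32 (-0.42) and EXPA7 (-0.40), of which XTH32 was named, like EXPB4, after its value was seen, and EXPA18 and EXPA7, both genes of root hairs, stayed below 0 at the later times. The 12 genes of cellulose, callose and related wall polymers lay between -0.09 and 0.31, all under 1.5-fold.

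Among other hormone pathways, the 7 response regulators of cytokinin signalling had a median of -0.20. RR16 was the lowest, at -0.89, with 0.65 at 40 and 0.07 at 60 minutes, and RR23 the highest at 0.29. The 4 gibberellin genes lay within a narrow span below 0, from GID1C at -0.18 to GID1A at -0.14; the 3 GID1 genes encode the gibberellin receptors and SLY1 (-0.15) the F-box protein that acts with them. SLY1 was named, like RTE1 and GAPC2, after its value was seen. The ethylene-related genes ARL, RTE1 and EIN3 stood at 0.23, 0.08 and -0.09. The brassinosteroid receptor relative BRL1 stood at 0.21. The 5 genes of abscisic acid and cold response lay between -0.30 (KIN2) and 0.16 (COR15B). All of these, RR16 excepted, were under 1.5-fold.

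Of the transcription factor lists, the WRKY genes spread most widely: WRKY22, known from defence signalling, stood at 0.67 and WRKY41 at -0.86 at 20 minutes. WRKY22 was at -0.29 at both later times and WRKY41 at -0.23 and 0.03. The 18 bZIP genes lay between -0.29 (bZIP23) and 0.51 (BZIP34), and the 10 bHLH genes between -0.32 (bHLH34) and 0.32 (PIF7, a phytochrome-interacting factor). NAC014 (0.23), DREB2C (0.10) and PHV (-0.17), the lone members of the NAC, AP2/ERF and homeobox lists, were also under 1.5-fold. Of the 44 ubiquitin and proteasome genes, 32 lay above 0 with a median of 0.07. Over all 12130 named genes 5771 did, with a median of 0, and the array's robust SD was 0.165. The highest of the 44 were the U-box ubiquitin ligase genes PUB25 (0.66) and PUB26 (0.60, named after its value was seen), and the lowest was PEX4 (-0.27).

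Of the lists of housekeeping and cell biology genes, the 33 vesicle trafficking and autophagy genes ranged from VPS9B at -0.56 to SEC5B at 0.22, the 16 chromatin genes from HTB2 at -0.18 to the histone deacetylase gene HDA7 at 0.57, and the 9 cytoskeleton genes from TUA1 at -0.23 to TUB9 at 0.25. The 8 NETWORKED genes for actin-binding proteins ranged from NET4B at -0.40 to NET1B at 0.12. The 24 cytochromes P450 lay between CYP71B25 at -0.22 and CYP71B24 at 0.45, and the 14 glutathione S-transferases between GSTU22 at -0.45 and GSTU26 at 0.12. For touch and wounding, the calmodulin-like genes CML37 (0.55) and CML41 (-0.49) marked the ends of 10 genes. The light-related genes lay between LHCB4.3 at -0.12 and LHCB4.2 at 0.29, and the heat shock genes ATHSP22.0 and HSP93-III both at -0.17. The clock gene GI stood at -0.18. CCR2, also caught by the clock list, is the cinnamoyl-CoA reductase gene AT1G80820 and not a clock gene, and stood at 0.03. For low oxygen, AT3G10040 (HRA1) stood at -0.38 and PDC2 at 0.06. RLP18 stood at -0.03 and the shoot apex marker CLV3 at -0.12.

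The 4 genes often used as references all lay below 0 at 20 minutes. AT2G28390 stood at -0.64, PEX4 (UBC21) at -0.27, GAPC2 at -0.23 and AT5G15710 at -0.03. Their median was -0.25 at 20, 0.02 at 40 and 0.00 at 60 minutes, so a ratio of 1.5-fold on the negative side, that of AT2G28390, occurred here in a gene chosen for even expression.

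The negative 2-fold line was reached by 34 named genes, 0.280% of those measured. The lowest was AT1G17230, with log2 ratios of -1.94 at 20, -0.38 at 40 and 0.04 at 60 minutes. AT59, a pectate lyase gene, stood at -1.84, 1.58 and 0.34. AT1G68270 stood at -1.69, 0.12 and 0.36. AT1G14470 (-1.64, 1.57 and 0.18), AT1G63350 (-1.64, 1.18 and 0.12) and AT1G66320 (-1.64, 0.86 and 0.12) were tied at a ratio of 0.32. Most of the 34 are known here by a locus code without a role. The exceptions are AT59, AT1G27040 (NPF4.5 of the nitrate and peptide transporter family), the beta-glucosidase genes BGLU36 and BGLU24, and ICL. ICL encodes isocitrate lyase of the glyoxylate cycle, by which seedlings use stored oil, and stood at -1.03, 0.87 and 0.82. NPF4.5 stood at -1.47, -0.34 and 0.01, BGLU36 at -1.25, 1.33 and 0.23, and BGLU24 at -1.09, 0.18 and 0.30.

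**Figure D3:**
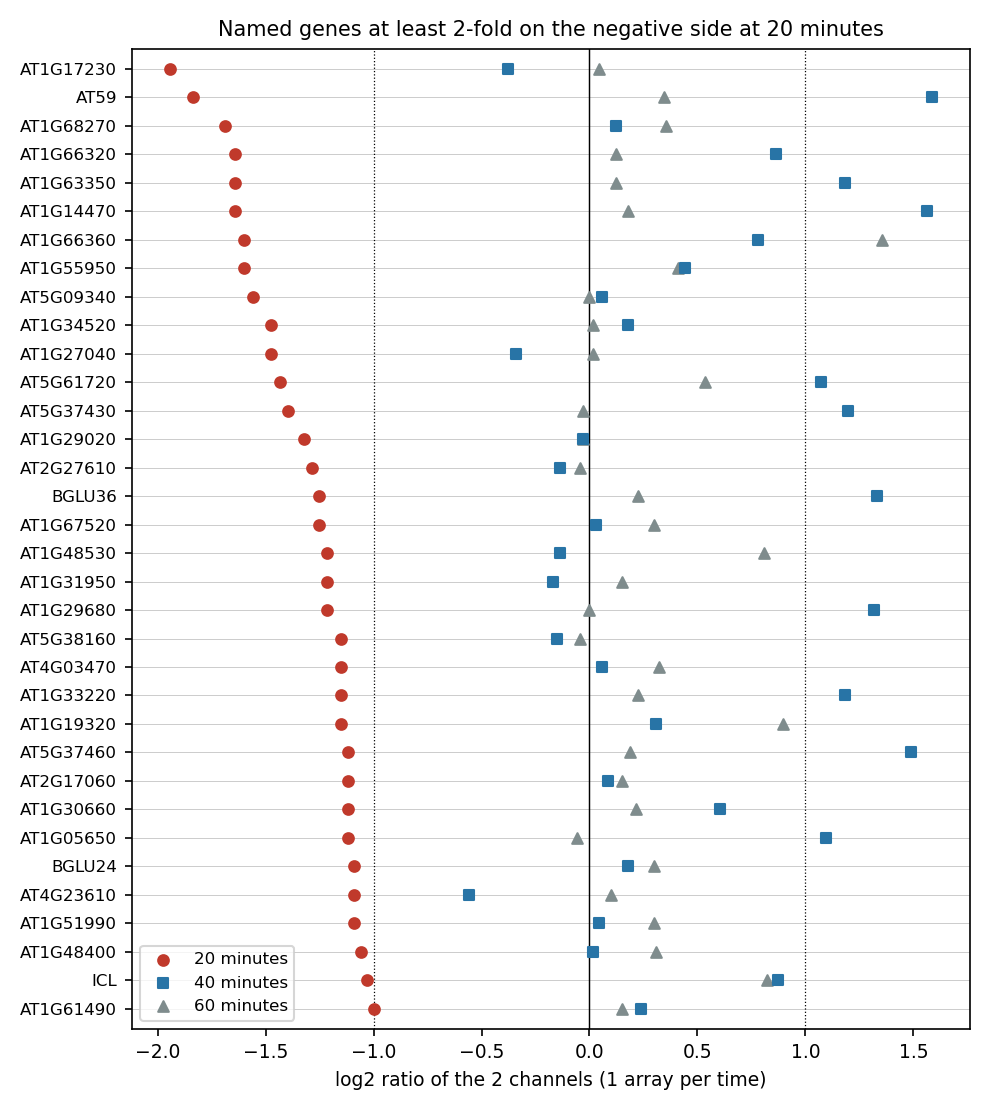
Log2 ratios (horizontal axis) of the 34 named genes that reached the negative 2-fold line at 20 minutes, 1 point per array at 20, 40 and 60 minutes, with dotted lines at 2-fold. The 40-minute points run from -0.56 to 1.58 and the 60-minute points from -0.06 to 1.36, and no later point lies to the left of -1.

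Other genes of the 34 are given here by their place at the later times, and the last of them follow in the next paragraph. On the opposite side by 40 minutes were AT5G61720 (-1.43, 1.07 and 0.54), AT5G37430 (-1.40, 1.20 and -0.03) and AT1G29680 (-1.22, 1.32 and 0). So were AT1G33220 (-1.15, 1.18 and 0.23), AT5G37460 (-1.12, 1.49 and 0.19), AT1G05650 (-1.12, 1.10 and -0.06) and AT1G30660 (-1.12, 0.60 and 0.21). Under 1.5-fold at both later times were AT1G55950 (-1.60, 0.44 and 0.41), AT1G34520 (-1.47, 0.18 and 0.01), AT2G27610 (-1.29, -0.14 and -0.04) and AT1G67520 (-1.25, 0.03 and 0.30). The same held for AT1G31950 (-1.22, -0.17 and 0.15), AT4G03470 (-1.15, 0.06 and 0.32), AT2G17060 (-1.12, 0.08 and 0.15) and AT4G23610 (-1.09, -0.56 and 0.10). AT1G51990 (-1.09, 0.04 and 0.30), AT1G48400 (-1.06, 0.01 and 0.31) and AT1G61490 (-1, 0.24 and 0.15) were also under 1.5-fold at both later times.

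None of the 34 was at least 1.5-fold negative at 40 or at 60 minutes, where 1.38% and 0.338% of all named genes were. At 40 minutes 14 of the 34 were on the other side by 1.5-fold or more, 10 of them by 2-fold or more, where 5.73% of all named genes were past 1.5-fold. At 60 minutes 4 of the 34 did: ICL, AT1G66360 (-1.60, 0.78 and 1.36), AT1G19320 (-1.15, 0.31 and 0.90) and AT1G48530 (-1.22, -0.14 and 0.81). The other 18 lay under 1.5-fold at both later times, among them AT5G09340 (-1.56, 0.06 and 0), AT1G29020 (-1.32, -0.03 and -0.03) and AT5G38160 (-1.15, -0.15 and -0.04). The wider band of 155 genes at least 1.5-fold negative, 1.28% of those measured, held 37 that were at least 1.5-fold positive and 3 that were negative at 40 minutes. At 60 minutes 13 of its genes were past 1.5-fold on the positive and 0 on the other side. Counted at 1.5-fold or more, 8 of the 20 positive genes were on their first side at both later times, and 0 of the 34 negative genes were. Over all 12130 named genes, 69 were at least 1.5-fold positive at both later times. The share negative at both was not counted, but it is no larger than the 0.338% at 60 minutes. A count of 0 of 34 is near that share and does not set the negative genes apart.

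Several genes of the negative side were neighbours on the chromosome. Both runs given here were picked after their values were seen. In the order of loci, 8 consecutive measured genes of chromosome 5, from AT5G37400 to AT5G37470, were all below 0 at 20 minutes and all above 0 at 40 minutes. At 20 minutes they stood at -0.56, -0.45, -0.84, -1.40, -0.79, -0.01, -1.12 and -0.92, and at 40 minutes at 0.46, 0.40, 0.48, 1.20, 0.67, 0.74, 1.49 and 0.60. At 60 minutes their median was -0.03 and none was past 1.5-fold. The measured genes on either side did not share the pattern: AT5G37380 stood at -0.01 and -0.14 and AT5G37490 at 0.10 and 0.51 at 20 and 40 minutes. The probe numbers of the 8 genes form an even series from 528697 to 529418 in 7 steps of 103, while AT5G37380 and AT5G37490 have the numbers 533934 and 534037. Place on the chromosome and place in the probe series therefore cannot be told apart for these genes.

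A like run on chromosome 1 held AT59 and AT1G14470. Its 6 measured genes from AT1G14390 to AT1G14470 were all below 0 at 20 minutes and above 0 at 40 minutes, with medians of -0.59 and 1.54. Those with neighbouring probe numbers were AT1G14390 (-0.54 at 20 and 1.92 at 40 minutes, probe 527948), AT59 (-1.84 and 1.58, probe 528126), AT1G14470 (-1.64 and 1.57, probe 528127) and AT1G14460 (-0.42 and 1.51, probe 528218). The other 2 genes of the run had distant probe numbers, and their ratios at 40 minutes were smaller: AT1G14430 (-0.10 and 0.08, probe 517559) and AT1G14450 (-0.64 and 0.32, probe 517285). The measured genes on either side of this run did not share the pattern either: IQD28 stood at 0.12 and 0.30 and AT1G14480 at 0.40 and -0.47 at 20 and 40 minutes. The probe number of IQD28, 527859, is 89 below that of AT1G14390. Probes outside the run with numbers from 527948 to 528218 and past 2-fold at 20 minutes went both ways. The unnamed probes 528033 (-1.15 at 20 and 1.52 at 40 minutes) and 528141 (-1.74 and 1.07) shared the pattern. GH3.1 (2.45 and 2.85, probe 528153) and AT2G32870 (1.64 and 0.33, probe 527972) did not. Just past this span, AT1G05650 (-1.12 and 1.10, probe 528228) shared the pattern. Below the span, unnamed probe 527682 (-1.47 and 1.39) shared it and LBD29 (1.58 and 2.16, probe 527637) did not. The span was that of a run picked after its values were seen. Whether place in the probe series plays a part was not tested. Without the genes of both runs, the count of named genes past the negative 2-fold line was 30.

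**Figure D4:**
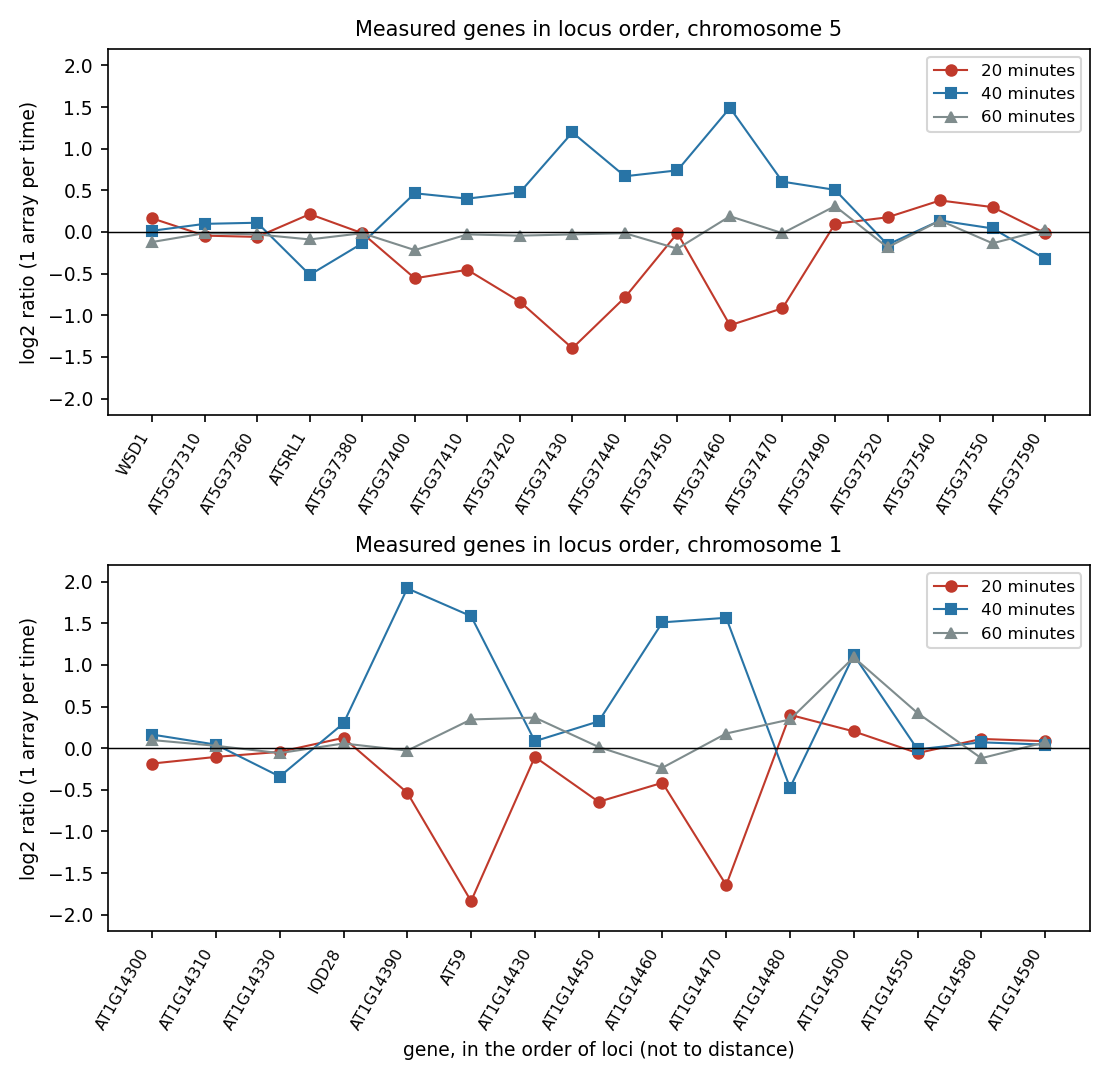
Log2 ratios (vertical axis) at 20, 40 and 60 minutes of the measured genes around both runs, in the order of loci and not to distance, 1 point per gene and array. From AT5G37400 to AT5G37470 and from AT1G14390 to AT1G14470 the 20-minute line lies below 0 and the 40-minute line above it.

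Across the array the likeness of neighbours was weak. Spearman's rho at 20 minutes was 0.0999 over 12015 pairs of genes next to each other in locus order. It was 0.127 over the 4191 such pairs whose probe numbers were 89 or 103 apart, the commonest steps between neighbouring loci, and 0.0481 over the 2728 pairs more than 500 apart. Over 5025 pairs of probes 89 or 103 apart whose genes lie on different chromosomes it was 0.00878. These are descriptions across genes of 1 array, which share its hybridisation, and genes are not independent replicates. Subtracting the median of 10 neighbours on each side in locus order left 18 of the 20 positive and 31 of the 34 negative genes past 2-fold.

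Chromosome 1 carried 25.7% of the named genes but 23 of the 34 at least 2-fold negative and 78 of the 155 at least 1.5-fold negative, 50.3%. On that chromosome 2.50% of named genes were at least 1.5-fold negative, beside 0.664% to 1.07% on the other 4. On the positive side the chromosomes were closer, with 1.54% on chromosome 1 and 1.04% to 1.35% on the others. The median log2 ratio at 20 minutes was -0.03 on chromosome 1 and 0.04 on chromosome 5, and at 60 minutes 0.04 and -0.01, so the order of these chromosomes was turned. Subtracting each chromosome's median left 33 of the 34 negative genes past 2-fold. Of the 37 genes that went from 1.5-fold negative to 1.5-fold positive by 40 minutes, 24 were on chromosome 1 and 7 on chromosome 5.

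**Figure D5:**
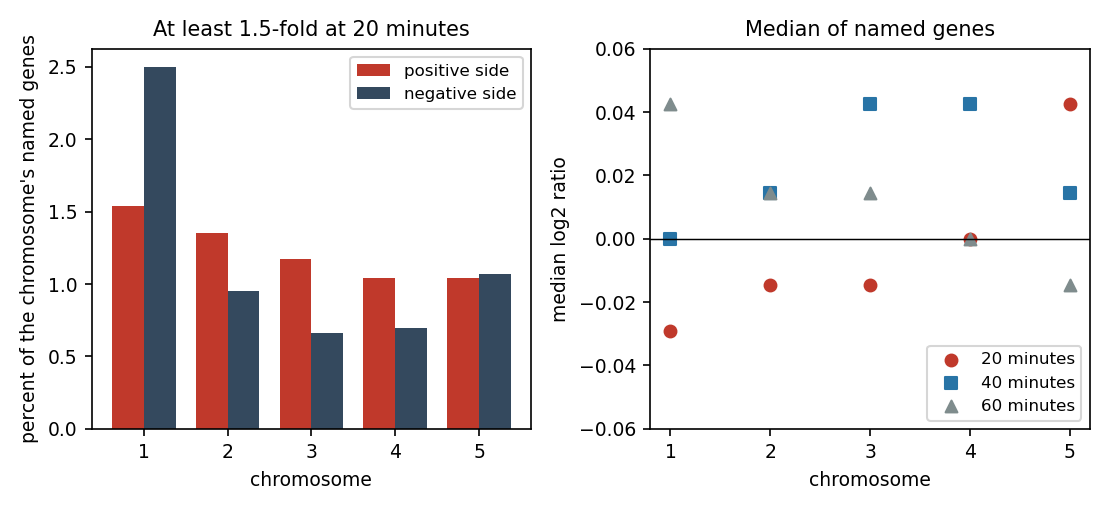
Left, the percentage of each chromosome's named genes at least 1.5-fold positive or negative at 20 minutes (bars from 0); right, the median log2 ratio of the named genes of each chromosome at 20, 40 and 60 minutes (1 array each). Chromosome 1 has the tallest negative bar, 2.50%, and the lowest 20-minute median, -0.03.

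Unnamed probes were counted in the same way. At 20 minutes, unlike among named genes, more of them were 2-fold positive than negative. Of 9743 with a value, 39 were at least 2-fold positive (0.400%) and 25 at least 2-fold negative (0.257%). Of the 39, 26 were at least 1.5-fold positive at both later times, and their group medians were 1.22, 1.31 and 1.18 at 20, 40 and 60 minutes. Of the 25, none was at least 1.5-fold negative at 40 or 60 minutes and 9 were positive at 40 minutes, with medians of -1.18, 0.42 and 0.11. Shares over all unnamed probes at the later times were not counted. Of named genes, 5.73% were at least 1.5-fold positive and 1.38% negative at 40 minutes, and 2.24% and 0.338% at 60 minutes. Beside these shares, none of 25 on the negative side does not set those probes apart. Probe 532171 had the largest later ratios, with log2 values of 1.38, 3.42 and 4.33, and probe 521682, the highest unnamed probe at 20 minutes with 2.28, stood at 0.01 and -0.01 later. Among the 39, 11 had another of the 39 exactly 89 or 103 probe numbers away, and the log2 ratios of these 11 ran from 1.01 to 1.496 at 20, from 1.24 to 1.64 at 40 and from 0.678 to 1.76 at 60 minutes. Whether these 11 probes report the same transcript was not tested.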

How the data were processed

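The deposited table holds log2 ratios of the 2 channels of each array; the dyes, the background correction and the normalization by the authors are not stated in the labels or the table. That the values are log2 of ratios rounded to 2 decimals was read from the table, where this held for 100% of values. GEO's annotation of the array named the probes, and symbols were brought up to date by Entrez gene number in RefSeq (assembly TAIR10.1): 12195 of 21939 had 1 gene, 12142 of these matched RefSeq, and 1 probe had several genes and was left unnamed. Probes of 1 gene were averaged. No coordinates are given, since the table names no genome build. Genes at or beyond 2-fold and 1.5-fold were counted, with no test and no threshold on signal, which these values do not hold; the number of arrays limits the precision. Columns of other samples numbered 0.

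The genes named are all named genes at or beyond 2-fold at 20 minutes, all measured members of the auxin lists and the highest and lowest member of each other list; others are said to be chosen after their values were seen. The 46 lists, 10 of which matched 0 measured genes, match symbols, synonyms or locus codes, and 1 pattern was trimmed after it caught 2 genes of other function. The comparison, lists and rules were chosen with earlier results of these data known. The code for counts and neighbour subtraction was tested on simulated normal noise with added shifts. This checks the code only and says nothing about the errors of the real array. The search of promoters for auxin response elements that had been planned was not made, since no sequences were used here. Python 3.11.15, pandas 2.3.3 and SciPy 1.17.1 were used.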

Additional observations from a re-analysis of the deposited data

Results flagged for a closer look

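The following genes stood at least 1.5-fold on opposite sides of 0 at 20 minutes and at a later time. They are those among the 117 genes taken by the naming rule that did so, 17 in all, and 12 of the 17 lie on chromosome 1. All of the 17 but RR16 are among the 34 genes 2-fold negative at 20 minutes. Of those 34, 23 (67.6%) lie on chromosome 1, so the 12 of 17 is near that share. All 17 were negative at 20 minutes and positive later, and each difference is the later value minus the earlier. With 1 array per time the difference was not tested, and its cause was not tested.

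From 20 to 40 minutes the log2 value differed by 3.42 in the pectate lyase gene AT59, by 3.21 in AT1G14470, by 2.83 in AT1G63350, by 2.61 in AT5G37460, by 2.59 in AT5G37430 and by 2.58 in BGLU36. The difference was 2.53 in AT1G29680, 2.51 in AT1G66320, 2.50 in AT5G61720, 2.38 in AT1G66360, 2.33 in AT1G33220 and 2.22 in AT1G05650. The same difference was 1.90 in ICL, 1.72 in AT1G30660 and 1.54 in the response regulator gene RR16. AT59 and AT1G14470 belong to the run on chromosome 1, and AT5G37430 and AT5G37460 to that on chromosome 5.

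From 20 to 60 minutes the difference was 2.96 in AT1G66360, 2.05 in AT1G19320, 2.02 in AT1G48530 and 1.85 in ICL. AT1G66360 and ICL were on the positive side at both later times.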

How the results depend on the processing

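The counts of 20 positive and 34 negative named genes past 2-fold were also 20 and 34 when the 3 arrays were given equal median absolute deviations, with the probe farthest from 0 standing for its gene, and with each named probe counted by itself. Subtracting the median of 10 neighbours on each side in probe number gave 21 and 32. Counting unnamed probes as well gave 59 and 59. Alternatives chosen after seeing the data gave 19 and 33 with neighbours in locus order subtracted, 20 and 33 with each chromosome's median subtracted, and 20 and 30 without both runs of neighbouring loci. Of the 117 reported log2 ratios under 5 alternatives, 0 changed side among those past 1.5-fold, and 2 moved by more than the array's robust SD, both under the subtraction in locus order: AT5G34840 to 0.82 and CCR2 to 0.21. No alternative stands in for a replicate. Scaling changed the 20-minute values by a factor of 1.003 only, so it says little about them. No array could be left out, since 1 array holds the comparison.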

Other observations

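Genes with a descriptive symbol numbered 1442, and 20 of them were at least 1.5-fold positive and 18 negative at 20 minutes, near the shares over all named genes (1.24% and 1.28%). Those given here were chosen after their values were seen. On the positive side GLR2.2, a glutamate receptor-like channel gene, stood at 0.90 at 20, 0.01 at 40 and 0.11 at 60 minutes. ORA47, a transcription factor gene of jasmonate signalling, stood at 0.58, 0.01 and -0.06, and the purine permease gene PUP18 at 0.60, -0.20 and 0. The peroxidase gene PRXCA stood at 0.59, 0.43 and -0.09. BAT1, an acyltransferase gene related to brassinosteroids, stood at 0.59, 0 and 0.67 and was the only one of these 5 past 1.5-fold at 60 minutes.

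On the negative side IDH-III, which encodes an isocitrate dehydrogenase, stood at -0.79, 0.95 and -0.40, beside isocitrate lyase (ICL) at -1.03, 0.87 and 0.82. CPNIFS stood at -0.81, 0.25 and 0.36, CRR22 at -0.67, 0.14 and 0.16, and CaS at -0.64, 0.65 and 0.10. The floral repressor gene SMZ stood at -0.79, 0.03 and -0.23, and SDS, a cyclin gene of meiosis, at -0.79, 0.10 and 0.16. CRK (CROOKED), a subunit gene of the actin-nucleating ARP2/3 complex, stood at -0.71, 0.24 and 0.04.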
